A study of Mus musculus with 10 samples.

Results

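The genes described here encode the machinery that brings new proteins into the endoplasmic reticulum (ER): the signal recognition particle (SRP) and its receptor, the SEC61 channel with its partners, signal peptidase and oligosaccharyltransferase. The 37 genes were chosen as the subunits of these complexes and matched by symbol to Entrez identifiers, which found all 37 among the 27179 genes of the table, and all 37 passed the filter on low counts. Poly(A) RNA of whole lung was sequenced from 5 EpithelialKO mice, which carry floxed Ern1 alleles (IRE1α fl/fl) together with Cre at 1 of the Shh loci (Shh Cre/+), and from 5 Flox mice, which carry the same floxed alleles and no Cre (Shh +/+). Ern1 encodes IRE1α, and Shh-driven Cre acts in the lung epithelium, so vessels, stroma and immune cells of the EpithelialKO lungs should keep the gene. Cre, the altered Shh locus and the loss of Ern1 occur together in EpithelialKO and cannot be told apart in this design. The labels give no age, sex or batch. The comparison asks whether RNA levels of the ER entry machinery, measured over all cells of the lung, change with Cre-driven loss of IRE1α in the epithelium.

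Most secreted and membrane proteins are recognised as they leave the ribosome. SRP binds the hydrophobic signal sequence and docks at its receptor on the ER membrane, and the chain then enters the SEC61 channel, helped by the translocon-associated protein complex (TRAP) and by TRAM. Signal peptidase cuts the signal sequence off, and oligosaccharyltransferase (OST) attaches the N-linked glycan as the chain emerges in the lumen. IRE1α senses unfolded protein in the ER and splices Xbp1 mRNA, and the resulting transcription factor is known to raise many genes of this machinery in professional secretory cells. In the lung such cells include the AT2 cells that make surfactant, the club cells of the airway and plasma cells.

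Levels are in CPM, counts divided by the TMM-scaled library size, and values per mouse follow the order of mice 17, 18, 20, 21 and 22 for EpithelialKO and 2, 3, 4, 5 and 6 for Flox. Fold changes are EpithelialKO over Flox on the log2 scale, so negative values mean lower in EpithelialKO, and a gene is called at a p under 0.05 after Benjamini-Hochberg adjustment over all genes tested.

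No gene of the machinery passed the threshold, and most of its genes stood slightly lower in EpithelialKO. Of the 37 genes, 0 had an adjusted p under 0.05 in edgeR's quasi-likelihood test, in which 6 of 15301 genes of the whole table (0.0392%) passed. The fold change of EpithelialKO over Flox was negative for 28 of the 37, against 49.9% of all genes tested, and the median log2 fold change was -0.076, against 0.000843 over all genes. At an unadjusted p under 0.05 there were 7 lower genes (18.9%), against 6.52% of all genes, and 0 higher ones, against 5.87%, although 2 were higher without Flox mouse 5 and 1 each without EpithelialKO mouse 18 or 21. These 7 were Ssr1, Sec61a1, Ddost, Srpr, Sec61b, Spcs3 and Magt1. In Ssr1, Sec61a1 and Ddost all 5 EpithelialKO mice lay below all 5 Flox mice, which is 8.11% of the 37 against 1.48% of all genes. The Wald test of DESeq2 gave 1 call, Ssr1 (adjusted p = 0.0159), among the 35 of these genes to which it gave an adjusted p, while 2.21% of all genes with such a p were called. Limma-voom with sample weights gave 0 calls, against 0.209% of all genes, and 8 lower genes at an unadjusted p under 0.05. Those 8 leave out Magt1 and add Sec63 and Tmem258. In edgeR the number of lower genes was 4 without EpithelialKO mouse 22 (Ssr1, Sec61a1, Ddost and Spcs2). It was 5 without Flox mice 4 and 6 (Ssr1, Sec61a1, Sec61b, Magt1 and Spcs2). Spcs2 is not among the 7 of the main fit.

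In whole-lung RNA, the changes that the data allow were small for most of the genes. They do not bound a change within epithelial cells, since all cells of the lung were measured together. In 35 of the 37 the log2 fold change lay between -0.3 and 0.3, and the standard error had a median of 0.10. The 95% interval stayed within -0.5 and 0.5 for 31 genes. The exceptions were Srp54a, Sec61a2 and Tram2, the only genes of the 37 under 15 CPM in every mouse, and Sec61b, Ssr1 and Magt1, whose intervals reached -0.50, -0.55 and -0.55. The summed level of all 37 genes was 3807 to 4062 CPM in EpithelialKO and 3964 to 4402 CPM in Flox, so the groups overlapped. Of the 37 loci 12 overlap another annotated gene, 7 of them a protein-coding one (Srpr, Serp1, Spcs1, Spcs2, Rpn2, Tmem258 and Krtcap2), and reads of such neighbours cannot be told apart where counting ignores the strand, which is not stated. In whole lung, fewer cells of a type and less RNA per cell cannot be told apart.

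**Figure D1:**
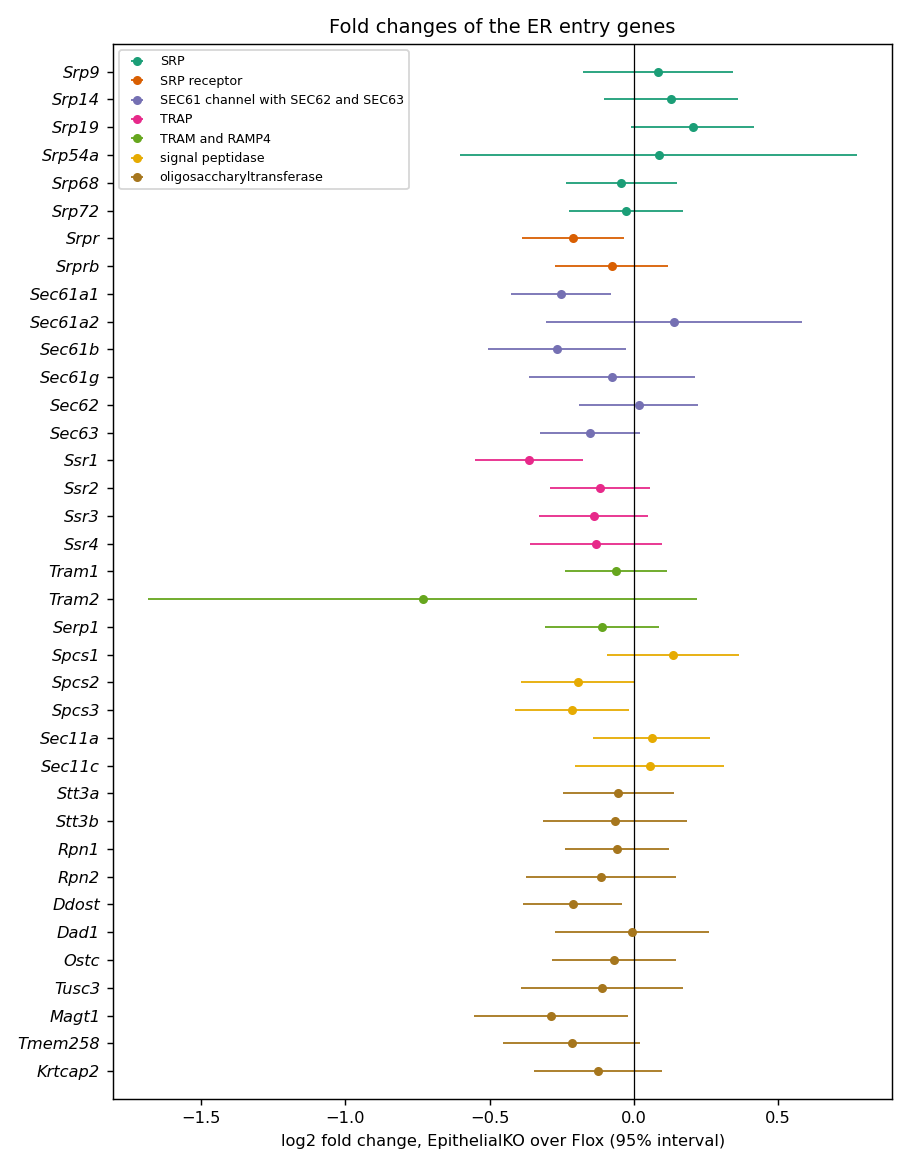
Log2 fold change of EpithelialKO over Flox (x axis) for each of the 37 genes (y axis), coloured by complex, with points for the edgeR estimate and bars for its 95% interval. Of the 37 points, 28 lie left of 0, and all 11 genes of oligosaccharyltransferase and all 4 of TRAP do; under upper quartile scaling Dad1 of the oligosaccharyltransferase lies right of 0.

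The libraries held 16234895 to 18870247 counts in EpithelialKO and 14983829 to 21224412 in Flox, where mouse 5 had the lowest total. Flox mice 4 and 6 had 3949 and 4866 counts of Xist, which is made from the inactive X chromosome, and 0 counts of 4 Y-linked genes, whereas the 5 EpithelialKO mice and the other 3 Flox mice had at most 61 Xist counts and at least 2462 Y-linked counts. The groups therefore differ in this measure of sex. Ern1 was at 17.3 ± 6.52 CPM in EpithelialKO and 16.8 ± 5.28 CPM in Flox (SD, n = 5 each), and the log2 fold change was 0.039 ± 0.27 (SE; 95% interval -0.55 to 0.63; edgeR adjusted p = 0.975). The counts cover the whole gene and the floxed exons are not named, so this value does not check the labels. Xbp1, whose spliced form gene counts do not show, was at 242 ± 38.8 CPM in EpithelialKO and 236 ± 23.9 CPM in Flox (SD, n = 5 each), and the log2 fold change was 0.037 ± 0.11 (SE; 95% interval -0.21 to 0.28; edgeR adjusted p = 0.938). Lung markers were abundant: the 8 AT2 markers summed to 49132 to 60719 CPM in EpithelialKO and 40879 to 49006 CPM in Flox, and none of the markers of any cell type was at 0.

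Markers of epithelial cells and of fibroblasts, smooth muscle and endothelium stood mostly on opposite sides of 0. All 8 AT2, all 6 club and all 6 ciliated cell markers had positive fold changes, with medians of 0.25, 0.50 and 0.46. Of the fibroblast markers 6 of 7 were negative (median -0.37), of the smooth muscle markers 5 of 5 (-0.44) and of the endothelial markers 7 of 7 (-0.37). At an unadjusted p under 0.05 in edgeR, 5 AT2, 2 club and 3 ciliated cell markers were higher, against 5.87% of all genes. At that p 4 fibroblast, 3 smooth muscle and 6 endothelial markers were lower, against 6.52% of all genes. Flox mice 4 and 6, set apart by Xist, had the highest Flox values of Col1a1, Col1a2, Col3a1 and Mfap4, but not of Pdgfra, Dcn or Lum. They had the lowest Flox values of every club cell marker but Scgb3a1. Marker fold changes without these mice are not given here, so their part in these shifts was not tested. Endothelial markers summed to 1895 to 2431 CPM in EpithelialKO and 2499 to 3230.4 CPM in Flox, and fibroblast markers to 803 to 939 CPM in EpithelialKO and 969.6 to 1507 CPM in Flox. In neither list, nor in the AT2 list, did the sums of the groups overlap under TMM scaling. In the club, ciliated, smooth muscle, plasma cell and macrophage lists the sums overlapped. The AT2 sums, mostly Sftpc, were apart by a narrow margin (lowest EpithelialKO 49132 CPM, highest Flox 49006 CPM). Of single markers, 0 of 8 AT2, 0 of 7 fibroblast and 1 of 7 endothelial (Plvap, lower) had groups that did not overlap. Of all genes, 1.48% did so with EpithelialKO lower and 1.63% with EpithelialKO higher. Plasma cell markers, of a cell type with a very large ER, had 6 of 8 positive fold changes (median 0.084). The positive ones include Sdc1 and Xbp1, whose RNA in whole lung cannot be assigned to plasma cells. They summed to 1161 to 1700.1 CPM in EpithelialKO and 811 to 1646 CPM in Flox. Mzb1 and Ighm were negative, and Sdc1 alone was at an unadjusted p under 0.05 in edgeR (log2 fold change 0.31). Macrophage markers had 5 of 6 positive fold changes (median 0.13), none at an unadjusted p under 0.05. The negative one, Marco, had the lowest p of all markers, with a log2 fold change of -0.74 (edgeR adjusted p = 0.0598). It was at 13.3 to 17.2 CPM in EpithelialKO and 21.2 to 29.7 CPM in Flox. No marker passed the threshold. The part of these shifts in the values of the ER entry genes was not tested.

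The promoters of 28 of the 37 genes are in the RefSeq table of build GRCm38.p6. Sec61a1, which separated the groups, has no promoter there. Those of Ssr1 and Ddost are shown because these genes also separated the groups. That of Ssr3, whose groups overlapped, is shown because Ssr3 is a partner of Ssr1 in the same complex. Each is the stretch of 250 bases before the transcription start, on the gene's strand: chr13:37994209-37994458 (minus strand), chr3:65392554-65392803 (minus strand) and chr4:138304488-138304737 (plus strand). Capitals mark ACGTGG, a core of the sites that XBP1 binds, on either strand in Ssr1 and Ssr3, and CCAAT on either strand in Ddost. Ssr3 also holds CCAAT, which is not marked in it. Ddost holds no ACGTGG, and CCAAT, marked in its place, is common, as given below.
Ssr1: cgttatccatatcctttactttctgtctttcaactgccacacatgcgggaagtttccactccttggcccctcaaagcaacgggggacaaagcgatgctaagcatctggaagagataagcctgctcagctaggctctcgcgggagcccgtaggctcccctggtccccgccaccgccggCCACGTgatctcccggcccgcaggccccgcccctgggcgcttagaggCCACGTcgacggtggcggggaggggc
Ssr3: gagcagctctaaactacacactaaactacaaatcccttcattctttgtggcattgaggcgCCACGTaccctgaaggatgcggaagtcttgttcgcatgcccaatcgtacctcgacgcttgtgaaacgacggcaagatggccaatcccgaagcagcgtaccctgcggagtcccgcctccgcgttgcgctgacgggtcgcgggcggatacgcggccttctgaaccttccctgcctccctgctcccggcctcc
Ddost: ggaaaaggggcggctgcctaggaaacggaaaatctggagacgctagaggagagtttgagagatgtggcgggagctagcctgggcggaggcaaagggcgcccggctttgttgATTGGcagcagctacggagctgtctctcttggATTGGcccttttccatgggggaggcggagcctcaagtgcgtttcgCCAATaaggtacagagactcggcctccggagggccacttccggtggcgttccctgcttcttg
In the Ssr1 promoter ACGTGG occurred at 2 places, starting 73 and 26 bases before the start, and in the Ssr3 promoter at 1. Over windows that also take in 50 bases after the start, ACGTGG was found on either strand in 7 of the 28 genes (Ssr1, Ssr3, Sec63, Serp1, Spcs1, Srprb and Krtcap2), and in 12.6% of the tested genes with a promoter in the table (8.31% of all 32851 promoters). Of these 7, Ssr1 is among the 7 genes that were lower at an unadjusted p under 0.05, while the fold change of Spcs1 was positive. The ER stress response element, which is CCAAT followed after 9 bases by CCACG, was in 0 of the 28 and in 0.170% of tested genes, and its second form, ATTGG and CCACG with 1 base between them, in 1, Krtcap2, and in 0.0681% of tested genes. The longer XBP1 site TGACGTGG, which contains ACGTGG, was in 0 of the 28 and in 1.03% of tested genes. CCAAT alone, which is also part of the first element, was in 16 of the 28 and in 42.1% of tested genes. These 4 were in 0.119%, 0.0365%, 0.676% and 37.4% of all promoters. These are matches of letters in short windows.

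SRP, the particle that meets the signal sequence in the cytosol, was the complex with the most positive values. Of its 6 protein genes 4 had a positive fold change, the median was 0.085 (0.044 without Flox mouse 4, 0.14 without Flox mouse 3 and 0.012 without Flox mice 4 and 6), and 0 were at an unadjusted p under 0.05. Srp9 and Srp14 encode the pair that binds the Alu domain of the SRP RNA and slows elongation. Srp14 had 188, 157, 190.02, 175 and 201 CPM in the EpithelialKO mice, against 146, 192, 146, 199.6 and 149 CPM in the Flox mice. The groups overlapped, and Flox mice 3 and 5 stood among the high EpithelialKO values. Its log2 fold change was 0.13 ± 0.11 (SE; 95% interval -0.10 to 0.36; edgeR adjusted p = 0.674), or 0.025 without Flox mice 4 and 6, and that of Srp9 was 0.084 ± 0.12, with 114 to 146 CPM in EpithelialKO and 105 to 166 CPM in Flox. Srp9 was at an unadjusted p of 0.0385 (log2 fold change 0.22) when Flox mouse 5, its highest library, was left out.

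Srp19 (Entrez 66384, chromosome 18, 34331121 to 34336599), which prepares the SRP RNA to take up SRP54, had the lowest p of the particle. It was at 49.984, 41.0, 48.8, 41.4 and 45.5 CPM in the EpithelialKO mice, against 34.6, 41.7, 39.1, 40.2 and 41.0 CPM in the Flox mice. EpithelialKO mice 17, 20 and 22 lay above every Flox mouse, and mice 18 and 21 lay among them. The log2 fold change was 0.21 ± 0.10 (SE; 95% interval -0.0082 to 0.42; edgeR adjusted p = 0.424). Srp68 and Srp72, which form the heterodimer at the particle's centre, had -0.043 ± 0.091 and -0.027 ± 0.094, and the means of their groups differed by less than 1 SD. Srp54a, for the GTPase that binds the signal sequence, was counted at 2.11 to 3.68 CPM in EpithelialKO and 1.46 to 4.31 CPM in Flox. Srp54a has near-identical copies in the mouse, Srp54b and Srp54c, and how reads shared between copies were counted is not given, so its level and its fold change of 0.086 ± 0.33 are uncertain. The summed level of the 3 copies, taken as an alternative after seeing the data, was 30.0 ± 7.94 CPM in EpithelialKO and 26.2 ± 7.41 CPM in Flox (SD, n = 5 each).

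Both genes of the SRP receptor, which holds the particle at the ER membrane until the ribosome is handed to the channel, had negative fold changes. Srpr (Entrez 67398, chromosome 9, 35211203 to 35217003), for the GTPase subunit that pairs with SRP54, was at 152, 144, 128, 143 and 126 CPM in the EpithelialKO mice, against 168, 155, 163, 151 and 165 CPM in the Flox mice. The groups overlapped by a narrow margin, since EpithelialKO mouse 17 lay above the lowest Flox mouse. Its log2 fold change was -0.21 ± 0.084 (SE; 95% interval -0.39 to -0.034; edgeR adjusted p = 0.304), with an unadjusted p of 0.0223. It was -0.19 without Flox mice 4 and 6, with an unadjusted p of 0.0967 in edgeR. Srprb, for the subunit that anchors the receptor in the membrane, was at 53.7, 60.7, 64.9, 61.8 and 58.6 CPM in the EpithelialKO mice, against 70.9, 61.8, 64.6, 56.5 and 62.0 CPM in the Flox mice. Its groups overlapped over most of their range, and the log2 fold change was -0.076 ± 0.093 (SE; 95% interval -0.27 to 0.12; edgeR adjusted p = 0.791).

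In the SEC61 channel the values of the genes for the main pore subunit and the small β subunit were lower in EpithelialKO at an unadjusted p under 0.05, and neither passed after adjustment. Sec61a1 (Entrez 53421, chromosome 6, 88503607 to 88518800) encodes the α subunit that forms the pore. It was at 157, 143, 148, 135 and 152 CPM in the EpithelialKO mice, against 177, 181, 189, 168 and 159.7 CPM in the Flox mice. Every EpithelialKO mouse lay below every Flox mouse, although the highest EpithelialKO value and the lowest Flox value were close to each other. EpithelialKO over Flox gave a log2 fold change of -0.25 ± 0.083 (SE; 95% interval -0.43 to -0.077; edgeR adjusted p = 0.222), with an unadjusted p of 0.00739. Over all alternatives it stayed between -0.28 and -0.22, with adjusted p from 0.0873 to 0.575. Sec61b was at 75.6, 66.0, 70.8, 55.7 and 64.6 CPM in the EpithelialKO mice, against 74.0, 96.5, 74.5, 87.5 and 67.5 CPM in the Flox mice. Its groups overlapped, with Flox mouse 3 highest and EpithelialKO mouse 21 lowest. The fitted log2 fold change was -0.27 ± 0.11 (SE; 95% interval -0.50 to -0.027; edgeR adjusted p = 0.344), and it was -0.37 without Flox mice 4 and 6.

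The other genes of the channel did not separate the groups. Sec61g, for the γ subunit, ranged from 42.3 to 76.3 CPM in EpithelialKO and from 56.7 to 72.5 CPM in Flox, and the log2 fold change was -0.074 ± 0.14. Sec62 and Sec63 encode partners that open the channel for chains with weak signals, and Sec63 recruits the chaperone BiP through its J domain. Their log2 fold changes were 0.018 ± 0.098 and -0.15 ± 0.082, with EpithelialKO ranges of 212 to 287 CPM and 122 to 142 CPM and Flox ranges of 214 to 257 CPM and 135 to 157 CPM. Sec61a2, the second gene for an α subunit, was far less abundant than Sec61a1. It was at 8.10, 7.36, 8.80, 10.1 and 8.23 CPM in the EpithelialKO mice, against 8.89, 7.28, 5.05, 10.7 and 6.81 CPM in the Flox mice, and the Flox values covered the whole EpithelialKO range. This was a log2 fold change of 0.14 ± 0.21 (SE; 95% interval -0.30 to 0.58; edgeR adjusted p = 0.835), and it turned to -0.068 without Flox mice 4 and 6.

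**Figure D2:**
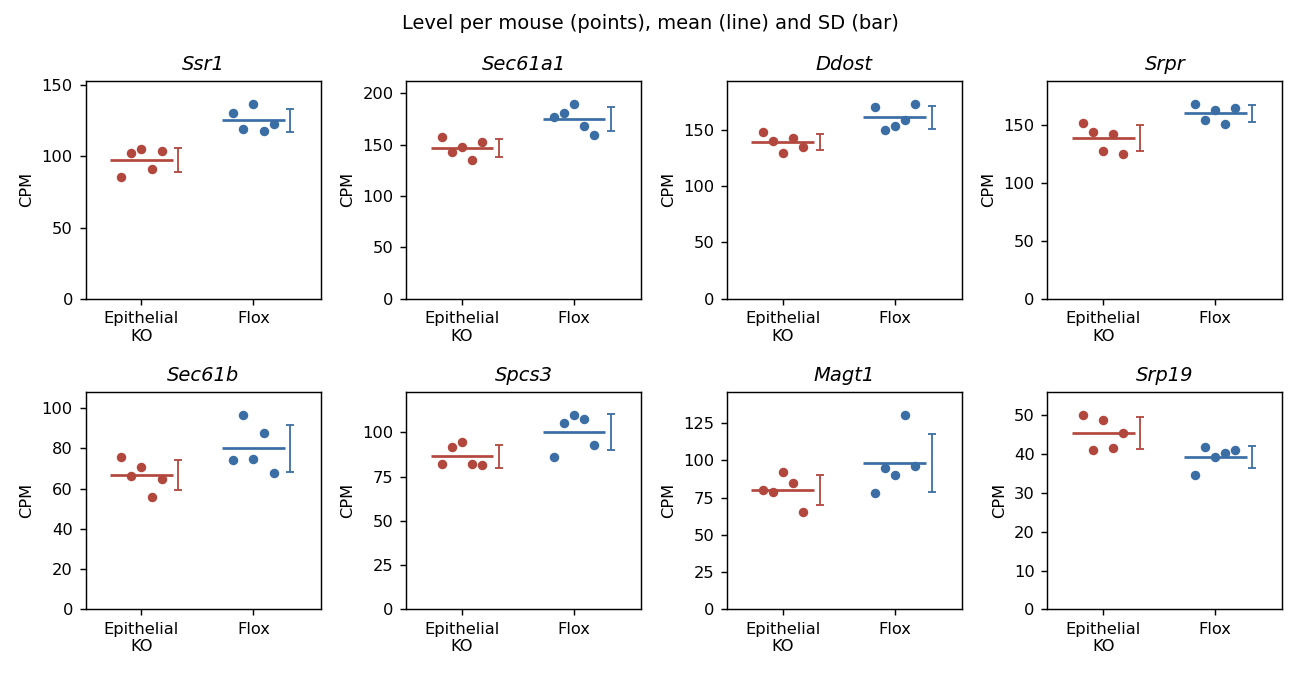
CPM after TMM scaling (y axis, from 0) in each EpithelialKO (red, left) and Flox (blue, right) mouse for 8 genes, with points for mice in order of mouse number, lines for group means and bars for SD. The groups do not overlap for Ssr1, Sec61a1 and Ddost and overlap for the other 5; of the genes shown, Srp19 alone has the higher mean in EpithelialKO.

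TRAP, the complex of 4 subunits that sits beside SEC61 and aids chains whose signals gate the channel poorly, had 4 of 4 negative fold changes and a median of -0.13. Ssr1 (Entrez 107513, chromosome 13, 37971401 to 37994208), for the α subunit, had the lowest p of all 37 genes. It was at 85.6, 102, 105, 90.9 and 103 CPM in the EpithelialKO mice, against 130.5, 119, 136, 118 and 123 CPM in the Flox mice. No EpithelialKO mouse reached the lowest Flox mouse. The log2 fold change was -0.36 ± 0.088 (SE; 95% interval -0.55 to -0.18; edgeR adjusted p = 0.122), with an unadjusted p of 0.000763. Over the alternatives it lay between -0.39 and -0.32 and its adjusted p between 0.0159 (DESeq2) and 0.523 (without Flox mice 4 and 6). The Ssr1 locus shares 3142 bases with the long non-coding RNA gene Gm52041, a stretch to which the same limit applies.

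The other TRAP subunits had smaller differences. Ssr3, for the γ subunit, was at 232, 225, 221, 253 and 255 CPM in the EpithelialKO mice, against 250.03, 258, 243, 304 and 249 CPM in the Flox mice. Flox mouse 5 stood above all others, and EpithelialKO mice 21 and 22 lay within the Flox range. EpithelialKO over Flox gave a log2 fold change of -0.14 ± 0.089 (SE; 95% interval -0.33 to 0.050; edgeR adjusted p = 0.560), and it was -0.077 without Flox mouse 5. Ssr2 and Ssr4, for the β and δ subunits, had -0.12 ± 0.083 and -0.13 ± 0.11, with means of 101 and 78.4 CPM in EpithelialKO and 109.7 and 85.8 CPM in Flox. Ssr4 is X-linked, and its log2 fold change was -0.15 without Flox mice 4 and 6.

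The membrane proteins that accompany the channel showed no separation. Serp1, for RAMP4, which binds SEC61 and protects membrane proteins under ER stress, was the most abundant of the 37 in CPM, with 322, 329, 338, 323 and 329 CPM in the EpithelialKO mice, against 345, 326, 376, 419.8 and 303 CPM in the Flox mice. The EpithelialKO mice were tightly grouped (SD 6.42 CPM) inside the wider Flox range (SD 45.4 CPM). Its log2 fold change was -0.11 ± 0.094 (SE; 95% interval -0.31 to 0.089; edgeR adjusted p = 0.677), and it was -0.040 without Flox mouse 5. Tram1, for the protein that contacts signal sequences as they enter the membrane, was at 143, 145, 143, 145 and 126 CPM in the EpithelialKO mice, against 144, 134, 155, 159 and 140.0 CPM in the Flox mice. The groups overlapped, and EpithelialKO mouse 22 alone lay below the Flox range. The fitted log2 fold change was -0.061 ± 0.083 (SE; 95% interval -0.24 to 0.12; edgeR adjusted p = 0.816). Tram2, a relative of Tram1 linked to collagen synthesis, was the least abundant, with 0.477, 0.989, 1.75, 2.11 and 1.63 CPM in the EpithelialKO mice, against 3.35, 1.40, 2.66, 1.40 and 2.74 CPM in the Flox mice. Its estimate was the largest of the 37 and the least precise, -0.73 ± 0.45 (SE; 95% interval -1.68 to 0.22; edgeR adjusted p = 0.536), and ranged from -0.93 to -0.52 over the alternatives; of the fibroblast markers given above 6 of 7 had negative fold changes, none past the threshold, and their part in this value was not tested.

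**Figure D3:**
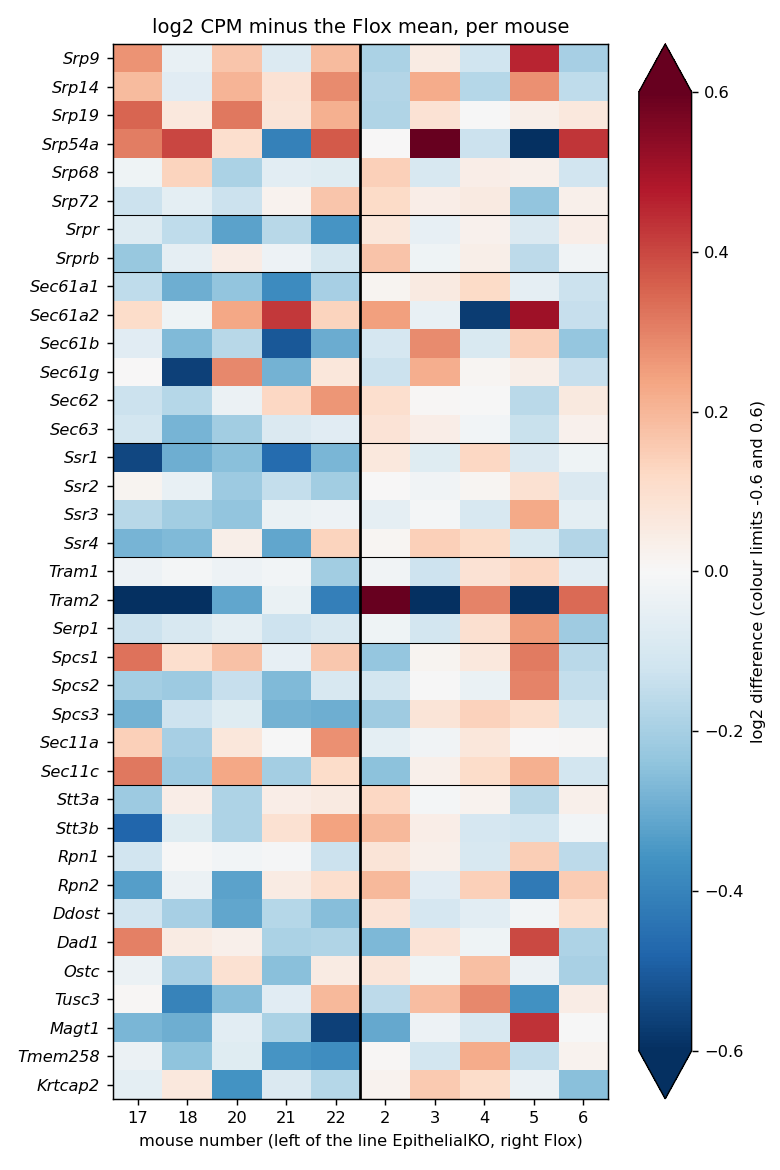
Log2 CPM minus the Flox mean of each gene (colour, red higher and blue lower, limits at -0.6 and 0.6) for the 37 genes (rows, by complex) in the 5 EpithelialKO mice (left) and 5 Flox mice (right). The genes that are blue in all 5 EpithelialKO mice include Ssr1, Sec61a1, Ddost, Srpr and Spcs3, and Flox mouse 5 is the highest library for 10 genes, among them Srp9, Dad1 and Magt1.

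Signal peptidase showed mixed directions, with 2 negative and 3 positive genes and a median of 0.056, which turned to -0.014 without EpithelialKO mouse 17 and to -0.00072 without Flox mouse 2. Spcs2 and Spcs3 encode accessory subunits, of which SPCS3 is essential for cleavage. Spcs3 (Entrez 76687, chromosome 8, 54520433 to 54529998) was at 82.2, 91.6, 94.9, 82.0 and 81.5 CPM in the EpithelialKO mice, against 86.2, 105, 109.8, 107 and 92.7 CPM in the Flox mice. The groups overlapped between the lowest Flox mice and the highest EpithelialKO mice. This was a log2 fold change of -0.21 ± 0.094 (SE; 95% interval -0.41 to -0.016; edgeR adjusted p = 0.358), with an unadjusted p of 0.0355. Spcs2 was at 153, 151, 159.9, 147 and 165 CPM in the EpithelialKO mice, against 163, 176, 172, 217 and 159 CPM in the Flox mice. Flox mouse 5 stood far above the rest, and EpithelialKO mice 20 and 22 lay within the Flox range. The log2 fold change was -0.19 ± 0.094 (SE; 95% interval -0.39 to 0.0060; edgeR adjusted p = 0.419); it was -0.11 without Flox mouse 5, which moves it by more than 1.5 times, and Spcs2 shares 11123 bases with Xrra1.

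The genes of the catalytic subunits had fold changes near 0. Sec11a was at 75.6, 59.7, 71.9, 68.4 and 82.9 CPM in the EpithelialKO mice, against 65.9, 67.6, 71.9, 68.7 and 68.8 CPM in the Flox mice. The Flox mice were close to each other (SD 2.19 CPM), and the EpithelialKO mice spread to both sides of them. EpithelialKO over Flox gave a log2 fold change of 0.063 ± 0.096 (SE; 95% interval -0.14 to 0.27; edgeR adjusted p = 0.836), and it was 0.0059 without EpithelialKO mouse 22. Sec11c, for the alternative catalytic subunit, was at 85.7, 59.1, 80.9, 59.7 and 74.3 CPM in the EpithelialKO mice, against 58.0, 70.3, 74.2, 79.7 and 63.8 CPM in the Flox mice. EpithelialKO mice 17 and 20 were the highest of all and mice 18 and 21 among the lowest. The fitted log2 fold change was 0.056 ± 0.12 (SE; 95% interval -0.20 to 0.31; edgeR adjusted p = 0.898), and it turned to -0.014 without EpithelialKO mouse 17 and to -0.00072 without Flox mouse 2. Spcs1, an accessory subunit that also bears on the processing of membrane proteins, had 0.14 ± 0.11, with 97.2 to 126 CPM in EpithelialKO and 85.7 to 125 CPM in Flox.

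Oligosaccharyltransferase was the largest complex, and all 11 of its genes had a negative fold change in edgeR with TMM, with a median of -0.11; under upper quartile scaling and in limma-voom the fold change of Dad1 turned positive, leaving 10 of 11, and it did so without Flox mouse 3 or 5 or without EpithelialKO mouse 21 or 22. Ddost (Entrez 13200, chromosome 4, 138304738 to 138312619), for the structural subunit OST48, had the lowest p among them. It was at 148, 139.7, 129, 142 and 135 CPM in the EpithelialKO mice, against 169.7, 149.9, 153, 158 and 172 CPM in the Flox mice. All EpithelialKO mice lay below all Flox mice, with mouse 17 just under Flox mouse 3. This was a log2 fold change of -0.21 ± 0.081 (SE; 95% interval -0.38 to -0.041; edgeR adjusted p = 0.289), with an unadjusted p of 0.0183. It was -0.20 without Flox mice 4 and 6, with an unadjusted p of 0.0691 in edgeR. Rpn1 and Rpn2, for the ribophorins that hold the enzyme at the ribosome, had -0.057 ± 0.085 and -0.11 ± 0.12, and the means of their groups differed by less than the SD of the Flox mice.

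The genes of the catalytic subunits of OST had small differences. STT3A glycosylates chains as they come through SEC61, and STT3B acts on sites that were skipped. Stt3a was at 86.4, 103, 88.5, 103 and 104 CPM in the EpithelialKO mice, against 109.6, 99.6, 102, 89.5 and 103 CPM in the Flox mice. The groups shared most of their range, and the log2 fold change was -0.053 ± 0.091 (SE; 95% interval -0.24 to 0.14; edgeR adjusted p = 0.861). Stt3b was at 70.1, 92.9, 85.7, 104 and 115 CPM in the EpithelialKO mice, against 112, 100.2, 91.0, 89.9 and 96.5 CPM in the Flox mice. EpithelialKO mouse 17 was the lowest and mouse 22 the highest of all 10, and the log2 fold change was -0.065 ± 0.12 (SE; 95% interval -0.32 to 0.19; edgeR adjusted p = 0.871), turning to 0.023 without EpithelialKO mouse 17. Krtcap2, for the subunit that joins the STT3A enzyme to the translocon, was at 57.7, 62.6, 46.8, 56.5 and 53.3 CPM in the EpithelialKO mice, against 60.9, 66.9, 64.7, 58.5 and 50.5 CPM in the Flox mice. Its groups overlapped, and the log2 fold change was -0.12 ± 0.11 (SE; 95% interval -0.35 to 0.10; edgeR adjusted p = 0.677). Ostc, which has the same role, had -0.068 ± 0.10.

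Magt1 and Tusc3 encode the alternative thioredoxin-like subunits of the STT3B enzyme, which hold cysteines near the glycan site. Magt1 (Entrez 67075, chromosome X, 105968084 to 106011802) was at 79.8, 78.6, 92.5, 84.7 and 65.5 CPM in the EpithelialKO mice, against 78.0, 94.6, 90.3, 130.3 and 96.3 CPM in the Flox mice. Flox mouse 5 was far above the other Flox mice, and Flox mice 2 and 4 lay inside the EpithelialKO range. The log2 fold change was -0.29 ± 0.13 (SE; 95% interval -0.55 to -0.019; edgeR adjusted p = 0.365), with an unadjusted p of 0.0375. It was -0.16 without Flox mouse 5, so that library moved the value by more than 1.5 times, and -0.33 without Flox mice 4 and 6; Magt1 is X-linked. Tusc3 was at 66.8, 50.3, 55.7, 63.5 and 76.1 CPM in the EpithelialKO mice, against 59.7, 75.5, 81.2, 51.7 and 68.6 CPM in the Flox mice. The groups shared their range, and the log2 fold change was -0.11 ± 0.13 (SE; 95% interval -0.39 to 0.17; edgeR adjusted p = 0.792); it turned to 0.0050 without Flox mice 4 and 6.

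Of the small shared subunits, Tmem258 and Dad1 gave different values. Tmem258, a subunit next to the catalytic one, was at 37.4, 32.4, 36.4, 30.0 and 29.6 CPM in the EpithelialKO mice, against 38.5, 35.5, 44.7, 34.7 and 38.9 CPM in the Flox mice. EpithelialKO mice 18, 21 and 22 lay below every Flox mouse, and mice 17 and 20 lay within the Flox range. EpithelialKO over Flox gave a log2 fold change of -0.22 ± 0.11 (SE; 95% interval -0.45 to 0.022; edgeR adjusted p = 0.452). Dad1, named as a defender against cell death, had -0.0051 ± 0.13, with 94.1 to 132 CPM in EpithelialKO and 89.1 to 141 CPM in Flox.

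Averaged over their subunits, OST and TRAP were the complexes in which the mice of the groups did not overlap. The average log2 CPM of the 11 OST genes, relative to the Flox mean, was -0.12, -0.12, -0.15, -0.10 and -0.093 in the EpithelialKO mice, against 0.0040, 0.013, 0.053, -0.030 and -0.041 in the Flox mice. The EpithelialKO mice lay within a narrow band (SD 0.0215, n = 5), although single subunits differed much more from mouse to mouse. For TRAP the values were -0.24, -0.20, -0.17, -0.24 and -0.094 in the EpithelialKO mice, against 0.0046, 0.0092, 0.038, 0.034 and -0.086 in the Flox mice. Here EpithelialKO mouse 22 and Flox mouse 6 were next to each other, and under upper quartile scaling the TRAP values overlapped while those of OST did not. For SRP they were 0.16, 0.068, 0.076, -0.058 and 0.19 in the EpithelialKO mice, against -0.049, 0.15, -0.055, -0.054 and 0.0065 in the Flox mice, with EpithelialKO mice 17 and 22 above every Flox mouse and mouse 21 just below every one. For signal peptidase they were 0.060, -0.13, 0.053, -0.16 and 0.032 in the EpithelialKO mice, against -0.17, 0.021, 0.068, 0.19 and -0.10 in the Flox mice, with both groups spread across 0. Of the single genes, Ssr1 alone separated the groups in TRAP, and Ddost alone in OST. Averages of other sets of genes are not given here, so how often such averages separate the groups is not known. These averages are descriptions of genes chosen with earlier results known and were not tested.

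**Figure D4:**
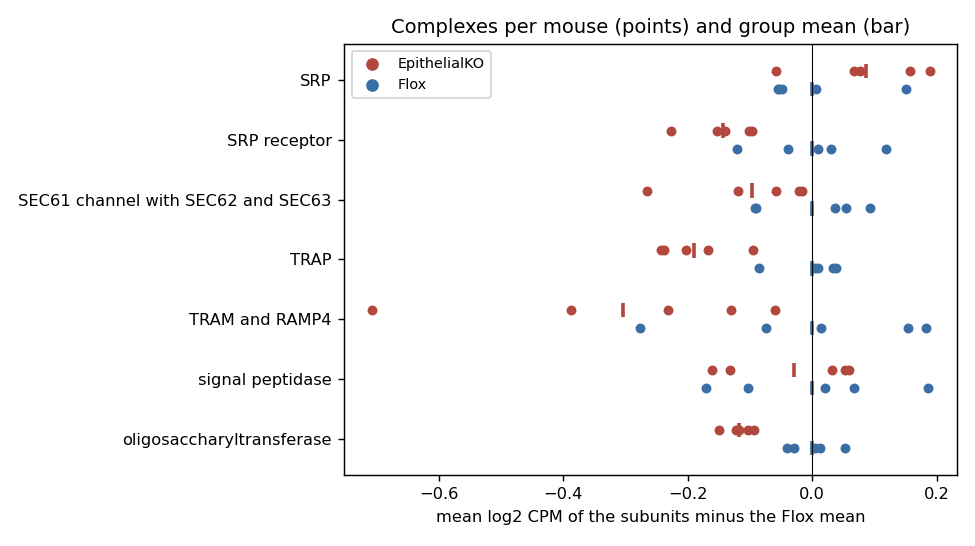
Mean log2 CPM of the tested subunits minus the Flox mean (x axis) in each EpithelialKO (red, upper row) and Flox (blue, lower row) mouse for each complex (y axis), with points for mice and bars for group means. The groups do not overlap for TRAP and oligosaccharyltransferase; SRP is the complex whose EpithelialKO mean lies right of the Flox mean.

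Where a function is shared by a pair of paralogs, their ratio within each mouse is free of library scaling, and the 5 pairs were compared by a two-sided exact permutation test over all splits of the mice, whose smallest possible p is 0.00794. None of the 5 passed after adjustment over the pairs. The log2 ratio of Sec61a1 to Sec61a2 was 4.26, 4.26, 4.05, 3.73 and 4.19 in the EpithelialKO mice, against 4.30, 4.62, 5.196, 3.97 and 4.53 in the Flox mice. EpithelialKO mouse 21 lay below every Flox mouse, and the other EpithelialKO ratios sat in the lower part of the Flox range. The difference was -0.42 (exact 95% interval -0.94 to 0.091, exact permutation p = 0.0873, adjusted p = 0.397). Without Flox mouse 5, which had the lowest Flox ratio, the difference was -0.56 and the adjusted exact permutation p was 0.0397. That of Tram1 to Tram2 was 7.93, 7.04, 6.27, 6.03 and 6.18 in the EpithelialKO mice, against 5.38, 6.47, 5.81, 6.72 and 5.62 in the Flox mice. The difference, 0.69 (exact 95% interval -0.45 to 1.77; exact permutation p = 0.159, adjusted p = 0.397), involves Tram2, the least abundant of the 37 genes, and was 0.38 without EpithelialKO mouse 17.

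The remaining pairs had differences nearer to 0. Stt3a to Stt3b had log2 ratios of 0.30, 0.15, 0.045, -0.0068 and -0.15 in the EpithelialKO mice, against -0.027, -0.0085, 0.17, -0.0075 and 0.089 in the Flox mice. The difference was 0.026 (exact 95% interval -0.15 to 0.23; exact permutation p = 0.778, adjusted p = 0.960), and the EpithelialKO mice covered a wider range than the Flox mice. For Sec11a to Sec11c the difference was 0.0070 (exact 95% interval -0.24 to 0.24; exact permutation p = 0.960, adjusted p = 0.960), with ratios from -0.18 to 0.19 in EpithelialKO and -0.21 to 0.18 in Flox. For Tusc3 to Magt1 it was 0.17 (exact 95% interval -0.36 to 0.81; exact permutation p = 0.556, adjusted p = 0.926), and it turned to -0.028 without Flox mouse 5. The intervals leave room for differences of these sizes, so they do not show that the pairs kept the same balance.

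**Figure D5:**
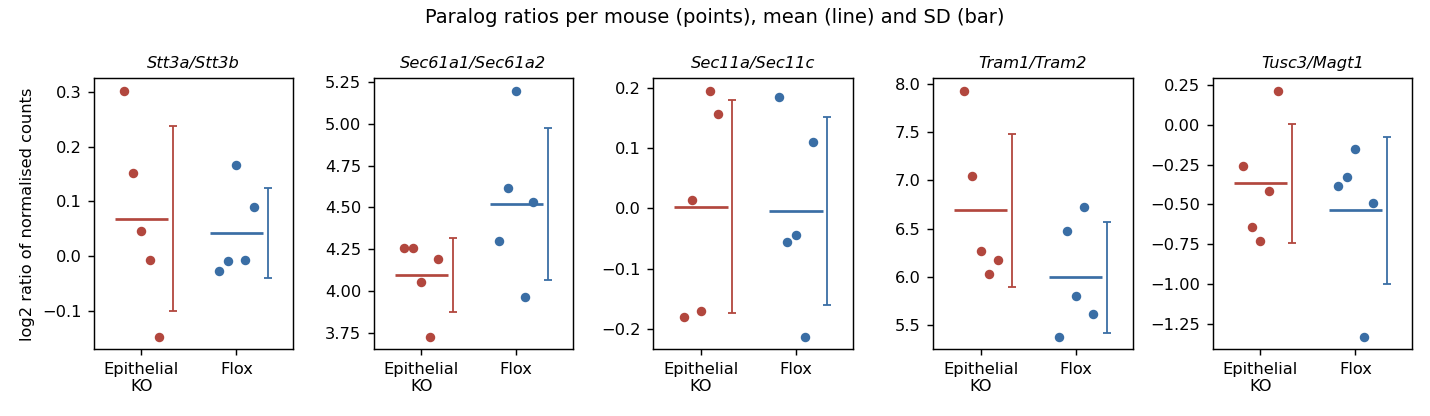
Log2 ratio of the normalised counts of 5 paralog pairs (y axes, own scale each) in EpithelialKO (red, left) and Flox (blue, right) mice, with points for mice, lines for means and bars for SD. The groups overlap in all 5 pairs; Flox mouse 5 has the lowest Flox ratio of Sec61a1 to Sec61a2 and of Tusc3 to Magt1.

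Levels of different genes were compared per kilobase of the longest GENCODE M21 transcript linked to each gene's RefSeq mRNA. Srp14 had the highest level per length, 228 ± 20.9 CPM per kilobase in EpithelialKO and 209 ± 33.7 in Flox (SD, n = 5 each), and Sec61b the next, 118 ± 13.2 CPM per kilobase in EpithelialKO and 142 ± 20.8 in Flox; in EpithelialKO it did not differ from Spcs1 (111 ± 10.4) beyond the spread. The pore gene Sec61a1 stood at 46.3 ± 2.73 CPM per kilobase in EpithelialKO and 55.1 ± 3.60 in Flox, and Sec61a2 at 3.48 ± 0.411 CPM per kilobase in EpithelialKO and 3.16 ± 0.869 in Flox, so that the α subunit RNA of the whole lung was mostly Sec61a1 in both groups. Within TRAP, Ssr1 had 10.4 ± 0.925 CPM per kilobase in EpithelialKO and 13.4 ± 0.860 in Flox, below Ssr2, Ssr3 and Ssr4, whose means lay between 80.1 and 98.0 in EpithelialKO and between 88.2 and 107 in Flox (SD 5.33 to 14.3 in EpithelialKO and 4.08 to 9.91 in Flox). Ssr3 was the lowest and Ssr4 the highest of these 3 in both groups, and Ssr2 and Ssr3 lay within 1 SD of each other. The single linked Ssr1 transcript is 9333 bases long, and shorter forms in use would raise its value. Among the OST genes, Ddost had 65.5 ± 3.40 CPM per kilobase in EpithelialKO and 75.8 ± 4.66 in Flox and the catalytic Stt3a 16.5 ± 1.51 CPM per kilobase in EpithelialKO and 17.2 ± 1.24 in Flox. The place of Dad1 depended on the transcript taken, with 31.1 in EpithelialKO and 31.2 in Flox for the longest and 123 and 124 for the shortest. Tram2 was the lowest, 0.214 ± 0.10039 CPM per kilobase in EpithelialKO and 0.356 ± 0.135 in Flox.

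Single libraries were often the extremes. Flox mouse 5 was the highest of the 10 mice for 10 of the 37 genes and the lowest for 3, and Flox mouse 2 the highest for 7 and the lowest for 5. EpithelialKO mice 18 and 21 were the highest for 0 genes, and each of the 5 EpithelialKO mice was the lowest for 5. The genes in which Flox mouse 5 was highest include Srp9, Ssr2, Ssr3, Serp1, Spcs2, Dad1 and Magt1, and those in which it was lowest are Rpn2, Srp72 and Srp54a. It is the library of the lowest total count, and the part of this in its values was not tested.

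Neighbouring steps of ER protein entry and N-glycosylation, given by 6 lists with 60 genes, showed 0 genes past the threshold in edgeR, 6 of 60 lower at an unadjusted p under 0.05, against 6.52% of all genes, 2 of 60 higher, against 5.87%, and 36 of 60 negative fold changes, against 49.9%. In 2 of the 60, Ncln and Alg2, the EpithelialKO mice lay below all Flox mice, against 1.48% of all genes. The 10 genes of the EMC insertase, which places membrane segments without SEC61, had a median of 0.060, with 4 negative, and Emc10 stood at 76.8 ± 9.07 CPM in EpithelialKO and 92.5 ± 5.34 CPM in Flox (SD, n = 5 each), and the log2 fold change was -0.27 ± 0.095 (edgeR adjusted p = 0.257). The 7 genes of the pathway for tail-anchored proteins had a median of 0.024, with Bag6, for a chaperone of hydrophobic segments, at -0.24 ± 0.085 and Get3, for the targeting ATPase, at 0.25 ± 0.11. Of 5 partners of the translocon for multipass proteins 3 were negative, among them Ncln at -0.24 ± 0.091.

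Genes that build the dolichol-linked glycan used by OST had 13 of 23 negative fold changes and a median of -0.038. The mannosyltransferase gene Alg2 was at 20.5 ± 1.11 CPM in EpithelialKO and 26.0 ± 2.83 CPM in Flox (SD, n = 5 each), and the log2 fold change was -0.34 ± 0.12 (edgeR adjusted p = 0.249). In the list of glycan trimming and the lectin cycle 6 of 7 were negative (median -0.097), with Uggt1, which senses the folding of glycoproteins, at -0.32 ± 0.11 (adjusted p = 0.241). In the list of BiP and its partners 7 of 8 were negative (median -0.10). The exception was Hspa5, which encodes BiP itself, at 674 ± 115 CPM in EpithelialKO and 532 ± 60.2 CPM in Flox (SD, n = 5 each), and the log2 fold change was 0.34 ± 0.12 (edgeR adjusted p = 0.249). Dnajb9, a cochaperone gene, had -0.35 ± 0.13 (edgeR adjusted p = 0.289). Hspa5 and Dnajb9 were the only genes of this list at an unadjusted p under 0.05 in edgeR. None of these genes passed the threshold.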

How the data were processed

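Deposited counts per Entrez gene, whole numbers with no normalization as read from the values, were used for 10 mice. The submitters' processing notes name cutadapt, HISAT2 and GRCm38. Which counter, annotation and strand setting the authors used is not given in the labels or the file. Symbols came from RefSeq (GRCm38.p6), which matched 25275 of 27179 genes. Any 2 mice differed beyond counting noise (lowest chi-square per degree of freedom 17.8), and nothing pairs them.

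After filterByExpr, 15301 genes were scaled by TMM and tested with edgeR 4.0.16 (robust quasi-likelihood, group only, R 4.3.3), with Benjamini-Hochberg adjustment over all of them and a threshold of 0.05. The SE of a fold change comes from its F statistic. Paralog ratios used log2 CPM with a prior count of 2, tested by exact permutation, and averages over a complex used the same values. Tests were checked on simulated data.

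The genes and lists were chosen with earlier results of these data known. Values per mouse are given for both genes of each of 5 paralog pairs and, in each complex, for the 2 genes with the lowest p (4 in OST); of other lists at most 2 genes are named. Alternatives were DESeq2 size factors, upper quartile scaling, the DESeq2 1.42.0 Wald test, limma-voom (limma 3.58.1), no filter, 1 CPM in 5 mice, leaving out each mouse or Flox mice 4 and 6, a threshold of 0.1 and a prior count of 0.5. Added after seeing the data were counts at an unadjusted p under 0.05 and the summed Srp54 copies.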

Additional observations from a re-analysis of the deposited data

Results flagged for a closer look

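Of 84 sets of 5 mice (37 genes and 5 ratios in each group), 5 had a highest or lowest mouse set apart from the others by more than 0.71 of the whole range, and chance alone would set apart about 5% of such sets. In Flox, mouse 5 was set apart as the highest for Ssr3 (0.75 of the range) and Spcs2 (0.712), and as the lowest for Srp72 (0.733) and for the log2 ratio of Tusc3 to Magt1 (0.716). In EpithelialKO, mouse 22 was set apart as the lowest for Tram1 (0.886 of the range).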

How the results depend on the processing

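The number of the 37 genes past the threshold was 0 with either other scaling, either other filter, limma-voom, a threshold of 0.1, without Flox mice 4 and 6 and in all fits that left out 1 mouse, and 1 (Ssr1) in DESeq2's Wald test. Genes lower at an unadjusted p under 0.05 numbered 4 to 8 over the fits without 1 mouse (4 without EpithelialKO mouse 22), and genes higher at that p 0 to 2 (1 under upper quartile scaling), and negative fold changes 27 to 29 over all alternatives. Over the fits without 1 mouse the medians ranged from -0.15 to -0.068 for OST, 0.044 to 0.14 for SRP, -0.17 to -0.11 for the SRP receptor, -0.16 to -0.046 for the SEC61 channel, -0.18 to -0.12 for TRAP, -0.16 to -0.040 for TRAM and RAMP4 and -0.014 to 0.12 for signal peptidase. Genes near 0 moved by over 1.5 times in these fits, such as Srprb (-0.11 to -0.031), Tram1 (-0.091 to -0.025), Stt3a (-0.092 to -0.013) and Krtcap2 (-0.18 to -0.068). Of 391 refits of the named genes, 386 kept the direction. The others were Sec61a2 (-0.068) and Tusc3 (0.0050) without Flox mice 4 and 6, Sec11c (-0.00072 without Flox mouse 2 and -0.014 without EpithelialKO mouse 17, 0.12 at most over fits without 1 mouse) and Stt3b (0.023 without EpithelialKO mouse 17, -0.15 at the lowest); the cause was not tested. Over fits without 1 mouse the ratio differences ranged from -0.032 to 0.081 for Stt3a to Stt3b, -0.045 to 0.054 for Sec11a to Sec11c, -0.028 to 0.27 for Tusc3 to Magt1, 0.38 to 0.87 for Tram1 to Tram2 and -0.56 to -0.25 for Sec61a1 to Sec61a2. Of all genes tested, 6 passed, against 34 with no filter, 32 in limma-voom, 279 in DESeq2, 0 without Flox mice 4 and 6 and 0 to 48 without 1 mouse. Depth limits Srp54a, Sec61a2 and Tram2. No paired analysis was possible because the groups share no mouse numbers. Nothing says more of the mice than that they are separate animals, so p-values set the difference between groups against the spread between these mice.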

Other observations

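The copies of Srp54 varied between mice of the same group to different degrees. Srp54b had 1.2511, 19.7, 8.05, 6.38 and 3.21 CPM in the EpithelialKO mice, against 6.19, 11.048, 3.10, 0.466 and 13.9 CPM in the Flox mice. EpithelialKO mouse 18 was the highest and Flox mouse 5 the lowest. Srp54c, by contrast, was at 15.8 to 24.4 CPM in EpithelialKO and 14.1 to 18.7 CPM in Flox. These genes were looked at after their values were seen, and how reads shared between the copies were assigned is not given.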
